A study of Mus musculus with 7 samples.

Results

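The genes described here encode the NF-kB transcription factors of germinal centre B cells and the proteins that switch them off again. They were taken by name: 10 genes, namely the subunit genes Nfkb1, Nfkb2, Rel, Rela and Relb, the inhibitor genes Nfkbia and Nfkbie, the ubiquitin-editing enzyme gene Tnfaip3, and the adaptor genes Traf1 and Traf3. Of these, 8 had a probe with a single gene symbol, each with 1 probe, out of 21515 genes with such a probe, and all 8 were among the 16136 genes bright enough to be tested. The expression of Nfkb1 and Traf3 was not analysed here.

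The samples were germinal centre B cells sorted from mouse spleen as positive for B220, CD95 and GL7, 7 days after injection of sheep red blood cells, which both genotypes received. Cells of wild-type animals (WT) gave 4 arrays, and cells of animals deficient in the small GTPase R-Ras2 (RRas2-deficient) gave 3, all called biological replicates in the labels. The allele behind the deficiency, the cells it acts in, and the strain and age of the mice are not given in the sources used here. Values are log2 intensities from 1 whole-transcript array per sample, and a difference of 1 on this scale is a doubling.

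NF-kB proteins are dimers built from RELA, REL, RELB and the products of Nfkb1 and Nfkb2. In a resting cell inhibitor proteins hold them in the cytoplasm. Antigen receptor, CD40 and Toll-like receptor signals lead to destruction of the inhibitors by the canonical route, while CD40 and the BAFF receptor also feed a slower route through processing of the Nfkb2 product and RELB. Nuclear NF-kB then raises transcription of its own inhibitors Nfkbia, Nfkbie and Tnfaip3, a negative feedback that ends the response. In the germinal centre this pathway is known to be most active in the light zone cells that receive antigen and T cell help.

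Binding sites for NF-kB share a short sequence, the kappaB consensus, and the promoters of the feedback genes show where such letters lie. The RefSeq promoter table (build GRCm38.p6) covers 250 bases before to 50 bases after each annotated start. Of the 10 genes 8 were matched in it, Nfkb1 and Relb not among them. The consensus was searched on both strands, overlapping matches included, and 6 of the 8 genes had at least 1 match: Nfkb2, Rel, Nfkbia, Nfkbie, Tnfaip3 and Traf3. Over all 27025 genes of the table it was 9.55%. Counted by promoter, 8 of the 11 promoters of these genes held a match, where 8.46% of all 32851 promoters did. Of the 9 among the 11 with a GC content of at least 55%, 8 held one, where 12.5% of the 14253 such promoters did. The 11 promoters had GC contents of 47% to 84%, against a median of 52.7% over all promoters. Rela and Traf1 had no match in this window. A match describes letters and does not show binding.

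The promoters of Nfkbia and Tnfaip3 are shown whole because these genes stood highest on the same 3 arrays, as described further on. Both lie on the minus strand, Nfkbia at chr12:55492598-55492897 and Tnfaip3 at chr10:19015361-19015660, and capitals mark the matches to the kappaB consensus.
Nfkbia: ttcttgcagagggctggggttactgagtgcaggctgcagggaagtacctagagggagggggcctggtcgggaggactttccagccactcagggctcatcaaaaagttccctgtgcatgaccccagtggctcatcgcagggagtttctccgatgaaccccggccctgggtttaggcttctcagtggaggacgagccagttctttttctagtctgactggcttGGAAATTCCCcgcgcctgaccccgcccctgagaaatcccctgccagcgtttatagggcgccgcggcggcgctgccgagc
Tnfaip3: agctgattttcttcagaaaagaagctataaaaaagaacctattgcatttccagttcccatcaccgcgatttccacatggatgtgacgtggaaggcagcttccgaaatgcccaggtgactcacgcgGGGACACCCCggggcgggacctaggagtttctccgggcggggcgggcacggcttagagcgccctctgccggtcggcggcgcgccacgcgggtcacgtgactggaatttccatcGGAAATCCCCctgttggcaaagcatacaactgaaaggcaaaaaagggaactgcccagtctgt
The Nfkbia match began 29 bases before the start, and those of Tnfaip3 began 125 and 12 bases before it. A promoter at another start of Tnfaip3 held no match.

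The matches of the other genes with measured expression are given with the bases beside them, again with the matching letters in capitals. They show that the subunit genes Nfkb2 and Rel carry the same kind of letters as the inhibitor genes.
Nfkb2 at its most upstream start, beginning 39 bases before it: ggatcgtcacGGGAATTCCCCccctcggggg
Nfkb2 at the same start, beginning 11 bases before it: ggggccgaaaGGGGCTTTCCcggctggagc
Nfkb2 at the next start, beginning 236 bases before it: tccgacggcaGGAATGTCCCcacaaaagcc
Nfkb2 at that start too, beginning at base 11 after it: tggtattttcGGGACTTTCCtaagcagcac
Rel, beginning 92 bases before its start: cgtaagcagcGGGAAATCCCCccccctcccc
Nfkbie, beginning 106 bases before its start: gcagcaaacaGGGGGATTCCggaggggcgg
The first Nfkb2 run and the Rel run each hold 2 overlapping matches. The last Nfkb2 match shown also lies in the window of the most downstream start, beginning 225 bases before it.

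Before the values, the libraries themselves need a description. The arrays fell into 2 sets by the interquartile range of all their log2 intensities, a split known from earlier results of these data: 3 narrower arrays (WT replicates 1 and 2 and RRas2-deficient replicate 2, 2.37 to 2.49) and 4 wider ones (WT replicates 3 and 4 and RRas2-deficient replicates 1 and 3, 2.69 to 2.91). Markers of germinal centre B cells were clearly measured on all 7 arrays. The list used for them also holds genes of B cells in general (Cd79a, Cd79b, Ms4a1 and Pax5), of leukocytes (Ptprc) and of dividing cells (Mki67). The mean over 12 of its 15 genes ran from 9.20 to 9.32 in the narrower set and from 10.05 to 10.38 in the wider set. Fas (CD95, a marker of the sort) read 7.11 to 7.33 against 8.38 to 8.77. Bcl6, the master regulator of germinal centre B cells, read 9.07 to 9.34 against 9.67 to 10.02. The mean over 8 of 10 naive B cell markers ran the other way, at 7.93 to 8.20 against 7.38 to 7.79. Means of the T and NK cell list (10 genes, 4.62 to 4.98 against 4.38 to 4.56) and of the stromal list (8 genes, 5.27 to 5.40 against 5.07 to 5.15) were also higher on the narrower arrays. Centring each array on its median took the median differences of these lists from 0.34 to 0.20 and from 0.20 to 0.06. After a further quantile normalization they were 0.21 and 0.24. The median over all probes was itself higher on the narrower arrays (4.49 to 4.54 against 4.34 to 4.41). The erythroid mean was lower there (5 genes, 4.43 to 4.56 against 4.67 to 4.93), while the myeloid (15 genes, 4.37 to 4.75) and plasma cell means (8 genes, 5.99 to 6.46) overlapped. The erythroid genes did not fall as a list, as their median difference was 0.10. Only 1 of the 5, Tfrc (-1.01), lay below all wider arrays, and Klf1 and Car1 were each at 0.12. The limit for dim genes was 3.48. In bulk samples fewer cells of a type and less RNA per cell cannot be told apart. Rras2 itself lay lower on all 3 deficient arrays (6.68 to 7.12) than on the WT arrays (7.13 to 8.66). This is a log2 difference of -0.99 ± 0.39 (SE) whose p by limma was 0.0415 unadjusted and 1.00 adjusted. A limma fit with the array set as a block gave -1.13 ± 0.20 (SE), where p was 0.000769 unadjusted and 0.296 adjusted. In that fit 10.1% of all genes had an unadjusted p under 0.05. In WT cells Rras2 read 7.13 and 7.41 on the narrower arrays and 8.66 and 8.39 on the wider ones. By array set the genotype difference was -0.59 on the narrower and -1.50 on the wider arrays.

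No gene of the group passed the comparison of genotypes. In the limma test over 16136 genes 0 of 8 rose and 0 fell at an adjusted p under 0.05, where 0.0124% of all genes tested did. At an unadjusted p under 0.05 it was again 0 of 8, against 0.818% of all genes. The log2 intensities of the genotypes overlapped in all 8 genes, and in 1.08% of all genes they did not. The deficient cells had the higher mean in 4 genes (Nfkb2, Rela, Relb and Nfkbia) and the lower mean in 4 (Rel, Nfkbie, Tnfaip3 and Traf1). The median log2 difference was -0.01, beside 0.00 over all genes tested. The adjusted p of each of the 8 was 1.00, and the labels name no animals, so these p-values measure the spread between samples.

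**Figure D1:**
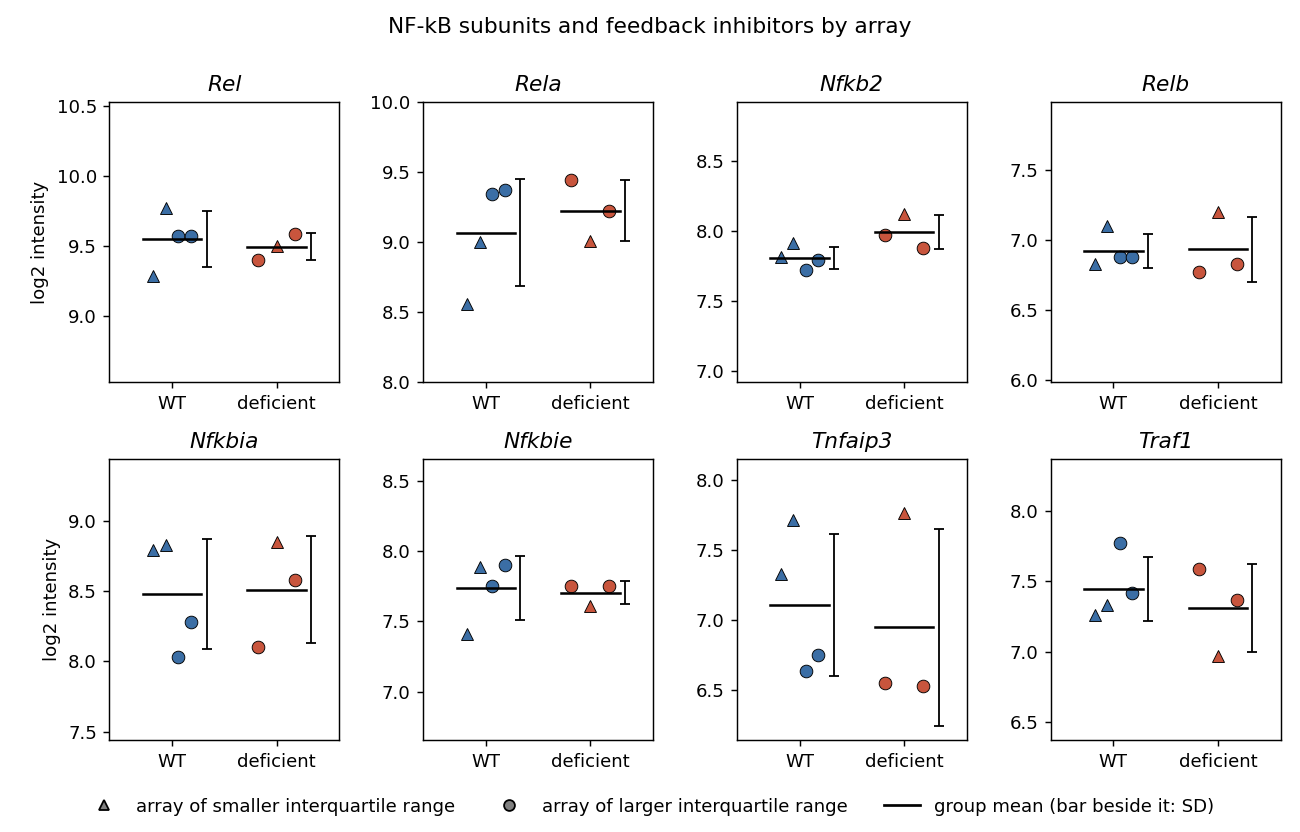
Log2 intensity (vertical axis, all panels spanning the same height) of the 8 measured genes on 4 WT and 3 RRas2-deficient arrays, with a line at each group mean and the SD beside it; triangles are the 3 narrower arrays and circles the 4 wider ones. WT and deficient arrays overlap in every panel, and the triangles lie above all circles in Nfkbia and Tnfaip3 and below all circles in Rela and Traf1, the last 2 not after a further quantile normalization.

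Among the subunits, Rel encodes c-REL, which germinal centre B cells need for their upkeep. In order of replicate number, as for all genes that follow, the log2 intensities were 9.29, 9.77, 9.57 and 9.57 in WT cells and 9.40, 9.50 and 9.59 in deficient cells. The deficient arrays lay inside the WT range. Means of 9.55 ± 0.20 (SD, n = 4) and 9.49 ± 0.09 (SD, n = 3) gave a log2 difference of -0.05 ± 0.13 (SE) with a 95% interval from -0.35 to 0.25.

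Rela encodes RELA (p65), the subunit with a strong activation domain that pairs with the Nfkb1 product p50. Its log2 intensities were 8.56, 9.0, 9.34 and 9.37 in WT and 9.44, 9.01 and 9.22 in deficient cells. The lowest values were those of WT replicates 1 and 2 and of RRas2-deficient replicate 2. The means of 9.07 ± 0.38 (SD, n = 4) and 9.22 ± 0.21 (SD, n = 3) differed by 0.16 ± 0.22 (SE, 95% interval -0.37 to 0.69). By array set it was 0.23 on the narrower and -0.03 on the wider arrays.

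Nfkb2 encodes p100, which is both an inhibitor of RELB and the precursor of the subunit p52. It read 7.81, 7.91, 7.72 and 7.79 in WT and 7.97, 8.12 and 7.88 in deficient cells. Of the WT arrays only replicate 2 reached above the lowest deficient array. The means were 7.81 ± 0.08 (SD, n = 4) and 7.99 ± 0.12 (SD, n = 3), a log2 difference of 0.18 ± 0.09 (SE) with a 95% interval from -0.04 to 0.40. Its unadjusted limma p of 0.0919 was the lowest of the 8. A limma fit that holds the array set, described above, as a block gave 0.21 ± 0.08 (SE), where p was 0.0317 unadjusted and 0.444 adjusted. Nfkb2 was then the 1 gene of 8 with an unadjusted p under 0.05, in a fit where 10.1% of all genes had one. Taken set by set, it was 0.26 in the 3 narrower arrays, 1 of them deficient, and 0.17 in the 4 wider ones. The values by set had 1 sign for Rel, Nfkbia, Nfkbie and Traf1 as well, but not for Rela, Relb and Tnfaip3.

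Relb encodes RELB, the partner of p52 in the slower route. It read 6.83, 7.10, 6.88 and 6.88 in WT and 6.77, 7.20 and 6.83 in deficient cells. Replicate 2 was the highest array of each genotype. The means were 6.92 ± 0.12 (SD, n = 4) and 6.93 ± 0.23 (SD, n = 3), with a log2 difference of 0.01 ± 0.13 (SE, 95% interval -0.30 to 0.33). By array set it was 0.24 on the narrower and -0.08 on the wider arrays. Relb is the only one of the 8 on chromosome 7 with Rras2, 805 positions away in the order of the 1346 tested genes there.

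Of the inhibitors, Nfkbia encodes IkB-alpha, which is destroyed and made anew within each round of NF-kB activity. It read 8.79, 8.83, 8.03 and 8.28 in WT and 8.10, 8.85 and 8.58 in deficient cells. High and low arrays occurred in both genotypes. The means of 8.48 ± 0.39 (SD, n = 4) and 8.51 ± 0.38 (SD, n = 3) differed by 0.02 ± 0.26 (SE, 95% interval -0.60 to 0.65).

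Nfkbie encodes IkB-epsilon, a slower inhibitor that prefers dimers with RELA and c-REL. Its values were 7.41, 7.89, 7.75 and 7.90 in WT and 7.75, 7.61 and 7.75 in deficient cells. The deficient arrays lay within the WT range. The means were 7.74 ± 0.23 (SD, n = 4) and 7.70 ± 0.08 (SD, n = 3), a log2 difference of -0.03 ± 0.14 (SE, 95% interval -0.36 to 0.29).

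Tnfaip3 encodes A20, an enzyme that edits ubiquitin chains and shuts off signalling to the IkB kinase. It read 7.33, 7.71, 6.64 and 6.75 in WT and 6.55, 7.76 and 6.53 in deficient cells. It had the widest range of the 8, from 6.53 to 7.76, with a high and a low level in each genotype and no array between 6.75 and 7.33. The means were 7.11 ± 0.50 (SD, n = 4) and 6.95 ± 0.71 (SD, n = 3). Their log2 difference was -0.16 ± 0.39 (SE, 95% interval -1.10 to 0.78). Holding the array set as a block gave 0.00 ± 0.13 (SE), and without RRas2-deficient replicate 2 it was -0.57. By array set the difference was 0.24 on the narrower and -0.16 on the wider arrays.

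Traf1 encodes an adaptor induced by NF-kB that joins TNF receptor family members to other TRAF proteins. It read 7.26, 7.33, 7.77 and 7.42 in WT and 7.59, 6.97 and 7.37 in deficient cells. The single lowest value was that of RRas2-deficient replicate 2. The means were 7.44 ± 0.23 (SD, n = 4) and 7.31 ± 0.31 (SD, n = 3), a log2 difference of -0.14 ± 0.19 (SE, 95% interval -0.58 to 0.31). It was 0.03 without RRas2-deficient replicate 2.

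**Figure D2:**
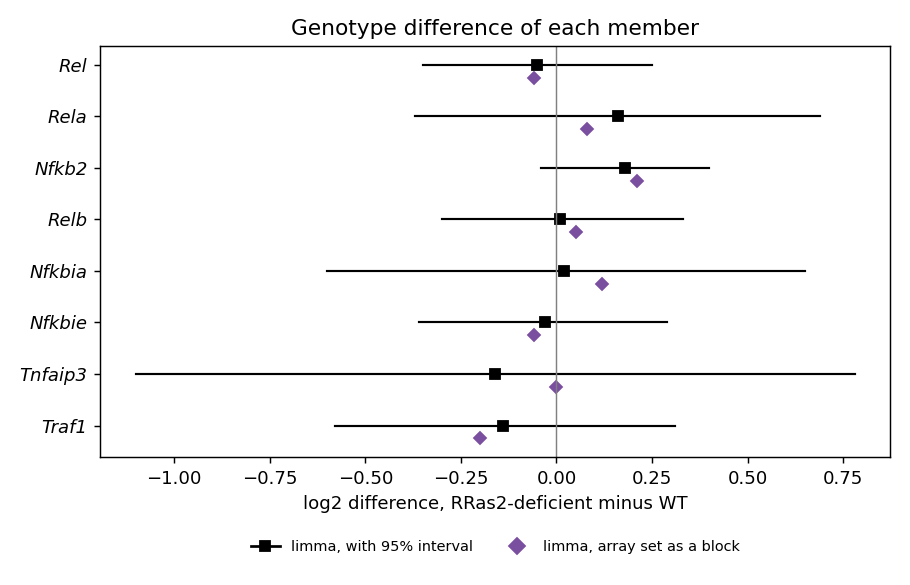
Log2 difference of RRas2-deficient minus WT (horizontal axis) for the 8 genes: squares with their 95% intervals are from limma without covariates, diamonds from limma with the array set as a block. Each interval spans 0, the interval of Tnfaip3 being the widest (-1.10 to 0.78) and that of Nfkb2 lying mostly above 0 (-0.04 to 0.40).

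The array sets, which hold both genotypes, parted some of these genes where genotype did not. Tnfaip3 read 7.33 to 7.76 in the narrower set and 6.53 to 6.75 in the wider set, a mean log2 difference of 0.98 or 1.98-fold. It was 0.82 within WT cells and 1.23 within deficient cells. Nfkbia read 8.79 to 8.85 in the narrower set and 8.03 to 8.58 in the wider set, a difference of 0.58, with 0.66 within WT and 0.51 within deficient cells. Rela ran the other way, at 8.56 to 9.01 against 9.22 to 9.44 (-0.49), and so did Traf1, at 6.97 to 7.33 against 7.37 to 7.77 (-0.35). Rel (-0.01), Nfkb2 (0.11), Relb (0.21) and Nfkbie (-0.15) overlapped between the sets. Thus 2 of 8 genes were above all wider arrays, where 13.6% of all genes tested were, and 2 of 8 were below all of them, where 26.9% were, a share near the background. The sets were parted by the spread of these same arrays, so the differences are given without a test.

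The scaling of the arrays bears on this pattern. After a further quantile normalization Tnfaip3 (1.43) and Nfkbia (1.05) stayed above all wider arrays, whereas Rela (-0.03) and Traf1 (0.12) overlapped. The other 4 genes then also lay above all wider arrays, with differences of 0.35 to 0.64, and 18.1% of all genes did so. With each array centred on its median, the differences were 0.85 for Tnfaip3, 0.44 for Nfkbia, -0.62 for Rela and -0.48 for Traf1, without overlap. That centring moved the median of all genes from 0.02 to -0.11. Only the height of Tnfaip3 and Nfkbia on the narrower arrays therefore held under all 3 scalings.

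Other genes that cells switch on early after a stimulus moved with Tnfaip3 and Nfkbia. In the immediate early list, which holds Fos, Egr1 and similar genes, 16 of 20 were above all wider arrays and 0 below, with a median difference of 0.83. Its mean ran from 7.47 to 7.82 in the narrower set and from 6.34 to 7.01 in the wider set. The germinal centre list moved against them, with 11 of 12 below all wider arrays and a median of -0.55 (6 of 12 and -0.39 after quantile normalization). Its more general genes Cd79a, Cd79b, Ms4a1, Ptprc and Mki67 were among the 11, and Pax5 overlapped. The sizes differed: Rgs13 read 5.86 to 6.44 against 8.59 to 9.59, and Cd79a 11.32 to 11.36 against 11.56 to 12.08. S1pr2 (-1.51) and Fas (-1.27) stayed below all wider arrays after quantile normalization, while Bcl6 (-0.60) then overlapped. With centred arrays 12 of 12 genes of the list were below, where 40.9% of all genes were. What underlies the fall was not tested. The naive B cell markers had a median of 0.34, with 3 of 8 above and 1 below (0.74 after quantile normalization, 6 above and 0 below). Of all genes tested, 13.6% were above all wider arrays and 26.9% below, and after quantile normalization 18.1% and 20.4%. The part of these cell markers and early genes in the levels of Tnfaip3 and Nfkbia was not tested.

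Of 5 other IkB genes, 2 were also above all wider arrays, where 13.6% of all genes tested were. The 2 were Nfkbid (IkB-NS), at 8.23 to 8.88 on the narrower arrays against 6.89 to 7.70, and Nfkbiz (IkB-zeta), at 6.64 to 7.07 against 6.04 to 6.34. Both encode nuclear proteins of the IkB family. They were the only 2 of 5 other IkB genes whose levels did not overlap between the sets, and both stayed above under the other 2 scalings. After quantile normalization 4 of the 5 lay above all wider arrays, where 18.1% of all genes did. Among 26 NF-kB target genes 6 were above all wider arrays (Ccl3, Irf4, Ccr7, Myc, Cd69 and Il10) and 8 below (Cd80, Cd86, Slamf1, Tnf, Lta, Ltb, Plek and Fas), where 13.6% and 26.9% of all genes tested were, and the median was -0.03. The split of the targets turned with the scaling. After quantile normalization 12 were above and 3 below, with a median of 0.12, where 18.1% and 20.4% of all genes were. With centred arrays 6 were above and 11 below, with a median of -0.16, where 4.96% and 40.9% of all genes were. Ccl3 (3.49 to 4.40) and Il10 (3.34 to 3.84) were near the limit for dim genes, and Fas and Irf4 are also in the germinal centre and plasma cell lists. Ccr7, the chemokine receptor that leads lymphocytes to the T cell zone, had the largest difference of these 14, at 8.07 to 9.10 against 5.81 to 6.67. Cd86, a T cell costimulator, was 6.64 to 7.11 against 7.56 to 7.73, and it overlapped after quantile normalization. Of the 14, the 6 higher genes and Cd80, Lta and Fas kept their side without overlap under both other scalings. All genes of this paragraph apart from Nfkbid, Ltb and Fas were named after their values were seen.

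**Figure D3:**
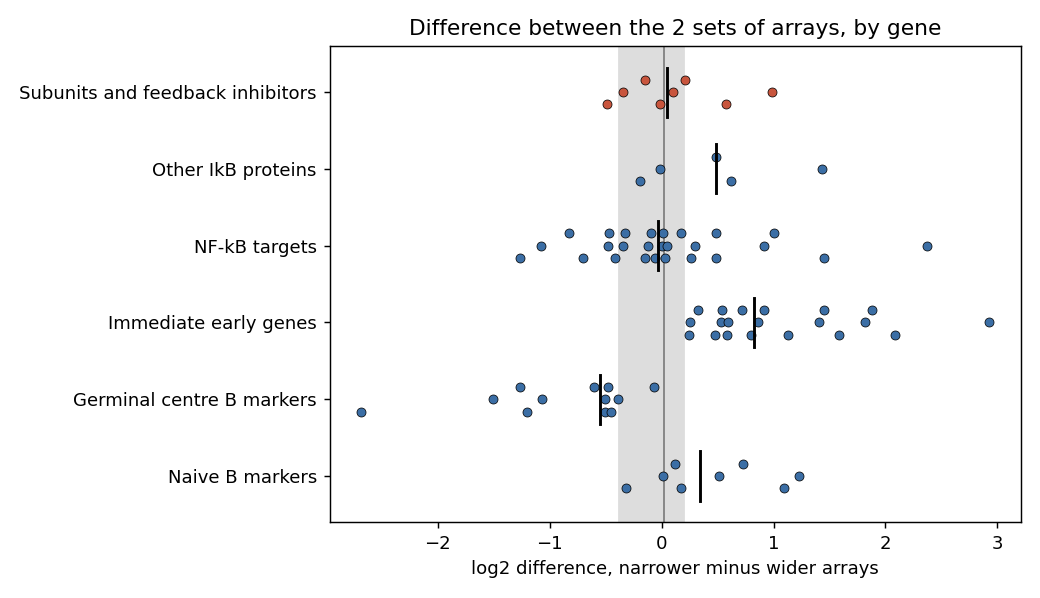
Log2 difference of the 3 narrower minus the 4 wider arrays (horizontal axis), 1 point per gene, for the NF-kB subunits and feedback inhibitors (red) and 5 other lists (blue); the black bar is a list's median, the grey band the interquartile range over all genes tested and the grey line their median of 0.02. Tnfaip3 at 0.98 and Nfkbia at 0.58 are the red points farthest to the right, immediate early genes have a median of 0.83 and germinal centre markers one of -0.55.

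In the other lists of the pathway no gene passed the comparison of genotypes either. By limma 0 of 5 other IkB genes, 0 of 9 genes of the IkB kinase complex and its activators, 0 of 19 TRAF and ubiquitin genes, 0 of 16 receptors and adaptors and 0 of 26 NF-kB targets rose or fell at an adjusted p under 0.05. At an unadjusted p under 0.05 there was 1 of them, Ltb, where 0.818% of all genes tested had one. That count depended on the fit. It was 0 with arrays centred on their medians and 0 with the replicate block. With the array set as a block it was 8, in a fit where 10.1% of all genes had one. In the order given, the median log2 differences were -0.16, -0.06, 0.02, -0.08 and -0.01, beside 0.00 over all genes.

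Ltb, which encodes lymphotoxin beta, a TNF family ligand, was 9.76 ± 0.24 (SD, n = 4) in WT and 10.22 ± 0.28 (SD, n = 3) in deficient cells, a log2 difference of 0.46 ± 0.18 (SE) with an unadjusted limma p of 0.0408. The other target of lowest p, the adhesion molecule gene Icam1, differed by -0.21 ± 0.14 (SE). Among other IkB genes Bcl3, a nuclear cofactor of p50 and p52, differed by -0.29 ± 0.16 and Nfkbid by -0.47 ± 0.57. In the kinase list Ikbkg, the regulatory subunit NEMO, differed by -0.08 ± 0.08 and Ikbke, which read 5.52 on 6 arrays and 5.64 on the other, by 0.04 ± 0.07. Rnf31, the catalytic subunit of the linear ubiquitin ligase, differed by 0.20 ± 0.11 and the adaptor gene Traf5 by 0.30 ± 0.24. Of the receptors Tnfrsf1b, a TNF receptor gene, differed by -0.13 ± 0.11. The endosomal RNA receptor gene Tlr7 read 4.90 to 4.97 in WT and 4.49 to 4.89 in deficient cells, a difference of -0.20 ± 0.11. It was the 1 gene of these lists without overlap, where 1.08% of all genes tested had none. The gap was narrow, as RRas2-deficient replicates 1 and 3 read 4.82 and 4.89, and the 4.49 was that of replicate 2. None of these 10 genes had an adjusted p under 0.05.

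**Figure D4:**
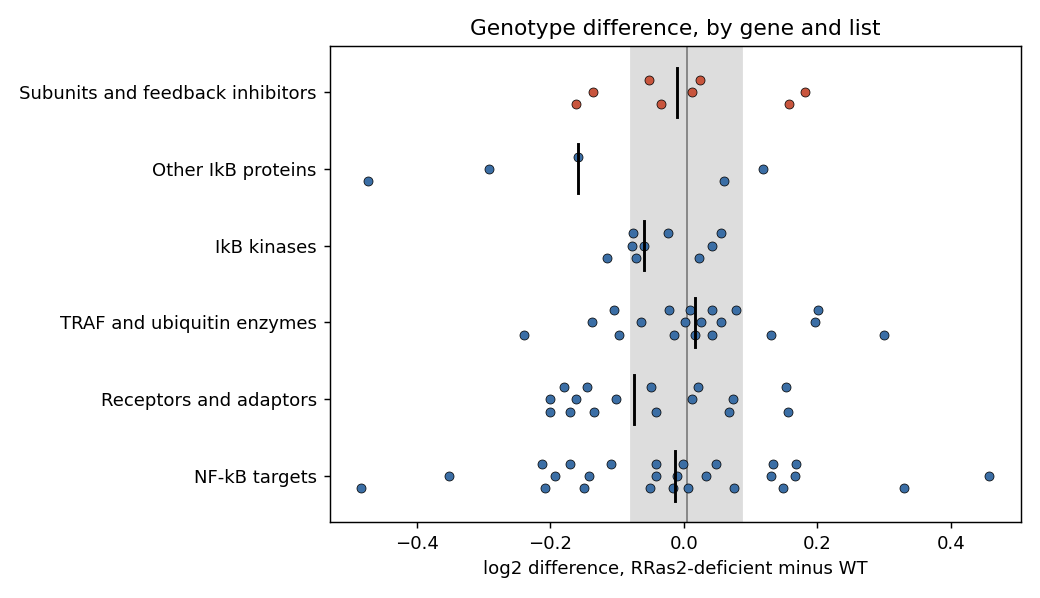
Log2 difference of RRas2-deficient minus WT (horizontal axis), 1 point per gene tested, for the NF-kB subunits and feedback inhibitors (red) and 5 other lists of the pathway (blue); the black bar is a list's median, the grey band the interquartile range over all genes tested and the grey line their median of 0.00. List medians lie between -0.16 and 0.02, and the point farthest to the right is Ltb at 0.46.

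By replicate, the mean log2 intensity over the 8 genes read 7.91, 8.19, 7.96 and 7.99 in WT cells and 7.95, 8.13 and 7.97 in deficient cells. The tested genes nearest to this mean, with every gene centred on its own average, were Cyp11a1, Zswim4 and Brpf3, at root mean square differences of 0.015, 0.020 and 0.021 on the log2 scale over 7 arrays. The centred mean only ran from -0.10 to 0.18, as it averages genes that differed in opposite directions between the array sets (Tnfaip3 0.98, Rela -0.49). The 3 nearest genes also varied little (Cyp11a1 4.55 to 4.81). Their nearness does not show that they follow any single gene of the 8.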

How the data were processed

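Biotin-labelled total RNA was hybridised per the labels' protocols, with 1 array for each sample. The deposited values are log2 intensities of transcript clusters. RMA and oligo are named, without versions, in the submitters' processing notes.

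Genes were named from the platform annotation (22225 probes with 1 symbol; 616 with several were not used), keeping the brightest probe. The dimmest 5379 of 21515 genes, those below the 25th percentile (3.48), were dropped. Genotypes were compared in limma 3.58.1 (R 4.3.3) by lmFit and eBayes without covariates, subtracting WT from RRas2-deficient, two-sided, with Benjamini-Hochberg adjustment over 16136 genes and a threshold of 0.05. Errors and 95% intervals of differences are limma's. The test was checked on simulated data with independent noise for each gene and array. Those data held no array sets, so the check does not cover them. Alternatives changed the dim-gene filter, probe choice, normalization, variance prior and array weights (statmod 1.5.0), added the array set, its interquartile range or the replicate number to the fit, or left out each array. Scalings of the array set differences were added after seeing the data.

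The genes, lists and alternatives were chosen with earlier results of these data known. The rule for names took the 10 genes, Rras2, the 2 genes of lowest unadjusted p of each of 5 pathway lists, the 3 genes nearest in profile and the first 3 measured markers of each cell type, the last mostly given as list means. A further pathway list is not reported here. No 2 arrays were identical, and their number limits the precision.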

Additional observations from a re-analysis of the deposited data

Results flagged for a closer look

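Among 43 genes looked at, of which chance alone would part about 1 in 20, 4 had a WT array far from the other 3. Relb read 7.10 in WT replicate 2 and 6.83 to 6.88 in the other WT arrays. The plasma cell marker Sdc1 read 5.66 in WT replicate 1 against 5.28 to 5.33. The erythroid markers Klf1 and Car1 read 3.52 and 3.46 in WT replicate 3, against 3.91 on each of the others for Klf1 and 3.78 to 3.84 for Car1, all near the limit for dim genes of 3.48.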

How the results depend on the processing

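In all 17 alternatives 0 of the 8 genes and 0 of the pathway list genes passed, and the median difference of the 8 stayed between -0.05 and 0.06. Over all genes 2 passed, against 1 with arrays centred on their medians, 5 with array weights, 0 with the replicate block and 0 to 2 without single arrays. The lowest adjusted p of the 8 under any alternative was 0.444, for Nfkb2, whose difference stayed positive (0.12 to 0.26). Signs of small differences changed, between the array sets too (Rela, Relb and Tnfaip3). With the replicate block Nfkbia was -0.04, Nfkbie 0.02 and Relb 0.00 (just under 0). With the interquartile range as a covariate Nfkbia was -0.03 and Relb 0.00 (just under 0), with array weights Relb was -0.06 and Traf1 0.01, with centred arrays Relb was -0.01, and with the array set as a block Tnfaip3 was 0.00 (just over 0). Without single arrays the ranges were -0.15 to 0.23 for Nfkbia, -0.14 to 0.02 for Nfkbie and for Rel, -0.01 to 0.26 for Rela, -0.12 to 0.10 for Relb, -0.57 to 0.05 for Tnfaip3 and -0.28 to 0.03 for Traf1. The cause was not tested. The difference between array sets reversed for Traf1 (0.12) after quantile normalization. Replicate numbers are shared between genotypes, but the labels state no pairing, so the number was not taken as one. Deviations of same-numbered arrays had correlations of -0.544, 0.711 and 0.694. The negative value was that of replicate 1, whose arrays were in different sets, and the others came from arrays of the same set. The correlations therefore cannot decide on a pairing. The replicate block also leaves WT replicate 4 without a partner. With 7 arrays the 95% intervals of single genes reach from 0.22 (Nfkb2) to 0.94 (Tnfaip3) to each side.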
